A study of Homo sapiens with 36 samples.

Results

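The 10 genes described here control apoptosis, and they were chosen as a named list from the 60725 Ensembl genes in each table: BCL2, BCL2L1, MCL1, BCL2A1, BCL2L11, BBC3, PMAIP1, BIK, BIRC2 and BIRC3. Their RNA was measured in 36 libraries that form 18 groups with 2 libraries each. The breast epithelial line MCF-10A ER-Src, not transformed until induced, carries a transgene through which tamoxifen activates a fusion of the estrogen receptor's ligand-binding domain with the v-Src oncoprotein. These cells received ethanol (ETH, non-transformed) or tamoxifen (TAM, transformed) and an siRNA, either a negative control (Ctrli) or targeted YAP (YAPi), TAZ (TAZi), STAT3 (STAT3i) or JUNB (JUNBi). The labels give AZD0530, a Src inhibitor, together with tamoxifen in the induction, and the time under tamoxifen was not given for these libraries. MDA-MB-231, a breast cancer line, was measured in set 1 with Ctrli, YAPi, TAZi, YAPi with TAZi, or TEADi, and in set 2 with Ctrli, JUNBi or STAT3i. Nothing in the labels says that libraries of a group came from separate cultures, so p-values measure the spread between libraries, which may be technical. In bulk RNA, fewer cells of a kind and less RNA per cell cannot be told apart.

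BCL2, BCL2L1 (BCL-XL), MCL1 and BCL2A1 are anti-apoptotic proteins that hold the pore formers BAX and BAK in check at the mitochondrial outer membrane. BCL2L11 (BIM), BBC3 (PUMA), PMAIP1 (NOXA) and BIK are BH3-only proteins that bind and antagonize them, and NOXA does so mainly for MCL1. BIRC2 (cIAP1) and BIRC3 (cIAP2) are ubiquitin ligases of the inhibitor of apoptosis family that act in tumor necrosis factor receptor signaling, and BIRC3 is a known NF-κB target gene.

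BIRC3 and BIRC2 are neighbors on chromosome 11, on the same strand and downstream of YAP1, the gene targeted by YAPi. In GENCODE 44 on GRCh38, 84059 bases lie between the end of YAP1 and the start of BIRC3, and 7807 bases lie between the end of BIRC3 and the start of BIRC2. The 250 bases before each start are shown because BIRC3 was the member with the most calls in ER-Src cells and BIRC2 is its nearest relative in the list. They are RefSeq sequence of GRCh38.p14, plus strand, at chr11:102317234-102317483 for BIRC3 and chr11:102346964-102347213 for BIRC2, and capitals mark matches to the NF-κB motif.
BIRC3: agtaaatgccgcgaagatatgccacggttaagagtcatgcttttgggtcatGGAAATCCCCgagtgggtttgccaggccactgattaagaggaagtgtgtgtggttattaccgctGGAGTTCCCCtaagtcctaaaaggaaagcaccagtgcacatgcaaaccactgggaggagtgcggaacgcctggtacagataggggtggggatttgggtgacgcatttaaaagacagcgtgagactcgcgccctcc
BIRC2: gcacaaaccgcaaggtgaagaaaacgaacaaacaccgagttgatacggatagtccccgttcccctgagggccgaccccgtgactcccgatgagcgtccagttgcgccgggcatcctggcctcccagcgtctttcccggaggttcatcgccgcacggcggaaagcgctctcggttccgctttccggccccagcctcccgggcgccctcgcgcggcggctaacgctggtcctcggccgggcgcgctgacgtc
BIRC3 had 2 NF-κB matches, from 199 to 190 and from 135 to 126 bases before its start, and BIRC2 had none. The motif occurs in 11.3% of the 35116 promoter windows (250 bases before to 50 after the start), searched on both strands. Windows of 8 of the 10 members were searched. MCL1 and BIK had no promoter sequence available and were not searched. The AP-1 motif TGANTCA, in 7.71% of windows, matched BBC3, the STAT motif TTCNNNGAA, in 7.66%, matched BCL2A1, and the TEAD motif GGAATG, in 14.0%, matched BBC3. The p53 half-site matched no member window and is in 6.63% of all windows.

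The siRNAs listed with a sequence are shown because one lies in YAP1, next to BIRC3 and BIRC2. The YAP siRNA site is at chr11:102114365-102114383, plus strand, in a coding exon, and the TAZ (WWTR1) site is at chr3:149520887-149520905, minus strand, in an exon that is coding or untranslated depending on the transcript. The methods name pooled siRNAs, so it was not known whether these sequences were the ones used in the sequenced libraries.
YAP siRNA: gacaucuucuggucagaga
TAZ siRNA: acguugacuuaggaacuuu
Among GENCODE 44 transcripts, neither site occurred in a transcript of the 10 members, and the YAP site also occurred in the pseudogene YAP1P1.

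Totals were 6419720 to 19161700 estimated counts per ER-Src library. In MDA-MB-231 set 1 the Ctrli libraries held 13456784 and 13534560, whereas the 8 knockdown libraries held 1411304 to 2784605. Non-polyadenylated RNAs took 8.71% to 11.8% of the counts in those 8 libraries and at most 0.00407% in their controls, so knockdown and library type cannot be told apart in set 1. Length minus effective length, which follows read length, was 48 in the first and 74.6 in the second library of each of these knockdowns and 75 in both controls. In ER-Src cells the share of non-polyadenylated RNAs was 9.43% to 11.7%, and in set 2 it was 0.00363% to 0.0112%. The targeted genes were lower in their own knockdowns: YAP1 had a log2 fold change of -2.49 in TAM and -2.63 in set 1, WWTR1 had -2.22 and -4.90, STAT3 had -2.66 in TAM and -2.41 in set 2, and JUNB had -2.03 and -2.04. The exception was JUNB in ETH, at -1.16 with an adjusted p of 0.0643, and STAT3 in set 2 received no adjusted p. In TEADi the log2 fold changes of TEAD1, TEAD2, TEAD3 and TEAD4 were -0.82, -4.30, -1.62 and -6.34. In set 1 YAPi, TAZi and YAPi with TAZi, which do not target TEAD, TEAD3 was at -1.53, -1.32 and -1.24. There TEAD4 was at -1.38, -1.36 and -2.05, TEAD2 at -0.55, -1.17 and -0.97, and TEAD1 at 0.43, 0.64 and 0.13. The TEAD3 value in TEADi was thus not particular to that knockdown. WWTR1 was also lower in set 1 YAPi (-1.14) and TEADi (-0.89). The STAT3i cells in TAM also had less JUNB, at -2.41. Basal epithelial markers summed to 2021 to 4269 TPM (transcripts per 1e6 transcripts, a level per length) in ER-Src and 8.09 to 147 TPM in MDA-MB-231, where KRT5 was at 0 in the controls of both sets.

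MCL1 had the highest mean TPM of the members in every ER-Src group. In TAM YAPi the mean of MCL1 was 62.1 TPM, beside 42.1 TPM for BIRC3. Under Ctrli the level of MCL1 was 118 and 109 TPM in ETH and 133 and 136 TPM in TAM. BCL2L1 was next in ETH, at 24.0 and 20.0 TPM, and had 17.2 and 18.2 TPM in TAM, where BIRC3 lay above it. BIRC3 stood at 17.2 and 11.6 TPM in ETH and 22.9 and 21.8 TPM in TAM, and BIRC2 at 9.77 and 8.65 and at 9.91 and 8.83 TPM. The BH3-only genes were far lower: in ETH, PMAIP1 averaged 3.33 ± 0.785 TPM (SD, n = 2), BBC3 2.47 ± 0.354, BIK 1.65 ± 0.198 and BCL2L11 0.58 ± 0.198. BCL2 averaged 0.515 ± 0.106 TPM, not separate from BCL2L11. BCL2A1 had no count in either ETH control library and no ER-Src library held more than 10.9 of its counts, so it received no adjusted p in that line.

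**Figure D1:**
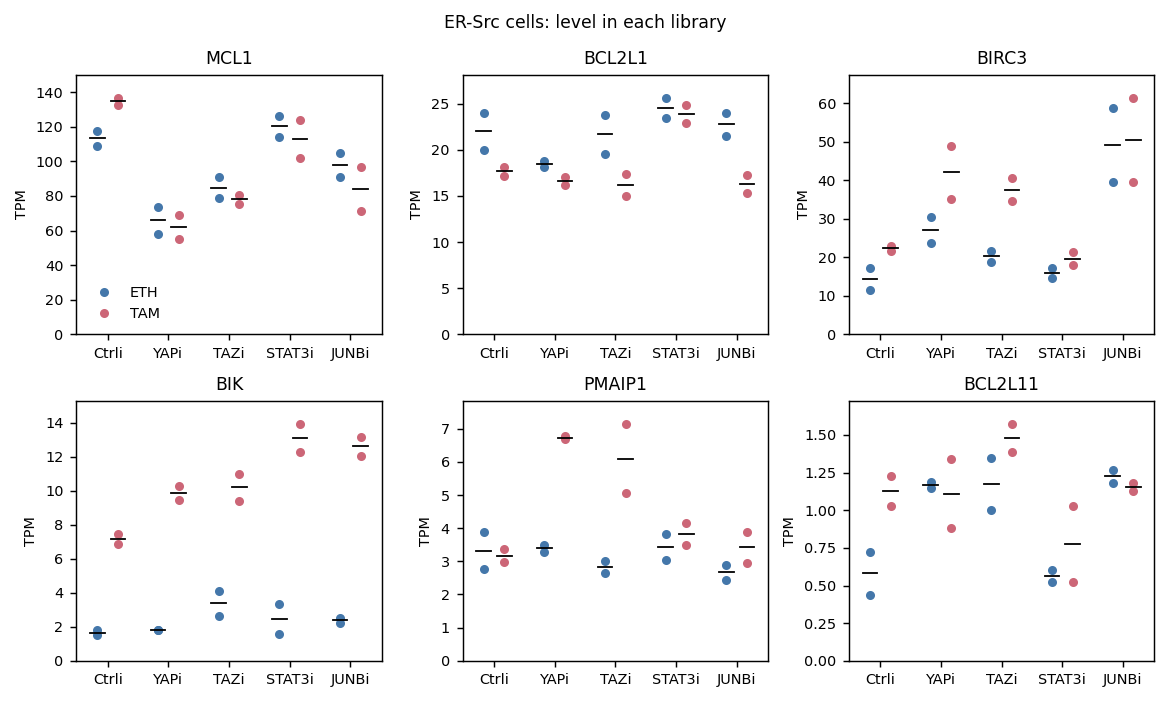
Level in TPM (vertical axis) of 6 members in each ER-Src library, by siRNA (horizontal axis) and by ethanol (ETH, blue) or tamoxifen (TAM, red). Points are libraries and black lines are group means of 2. BIK was higher in TAM than in ETH under all siRNAs, and MCL1 fell to 55.2 TPM in a YAPi library.

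Tamoxifen raised 3 members in control cells, MCL1, BIK and BIRC3, and lowered none, of 9 with an adjusted p (below 0.01 in DESeq2; 6.11% of 15934 genes were called, 4.56% as higher). BIK, a BH3-only gene, rose most, from 1.79 and 1.51 TPM to 6.89 and 7.48 TPM, a log2 fold change of 2.31 ± 0.37 (SE, adjusted p = 1.8e-08, DESeq2). MCL1 rose by 0.61 ± 0.09 (adjusted p = 3.2e-10, DESeq2), a fold of 1.53 in normalized counts, and its TAM libraries lay above its ETH libraries. In TPM its rise was smaller, from a mean of 113 to 135. The mean effective length assigned to MCL1 was 2369 bases in ETH and 2672 bases in TAM. BIRC3 rose by 0.78 ± 0.15 (adjusted p = 4e-06, DESeq2). Without the second ETH control library the BIRC3 call was lost, with a log2 fold change of 0.57 and an adjusted p of 0.0252. BCL2L11, which encodes the BH3-only protein BIM, had 0.72 and 0.44 TPM in ETH and 1.03 and 1.23 TPM in TAM. Its log2 fold change of 1.37 ± 0.42 did not pass in DESeq2 (adjusted p = 0.0153) and passed in edgeR (adjusted p = 0.0031). The other members with an adjusted p had values between 0.716 and 0.999. The median log2 fold change of normalized counts was 0.51 over all 10 members, beside -0.01 over all genes tested. The 10 include BCL2A1, at 3.73 on near-zero counts and without an adjusted p. In TPM the group means of BCL2L1 (22.0 to 17.7), PMAIP1 (3.33 to 3.17), BBC3 (2.47 to 2.415) and BCL2 (0.515 to 0.495) were lower in TAM. Those of the other members were higher.

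In TAM cells MCL1 was lower in all 4 knockdowns, and BIRC3 was higher in 3 of them. The 4 comparisons share 2 Ctrli libraries, which are also those in which MCL1 was higher than in ETH, and the 4 knockdowns in ETH likewise share 2. MCL1 fell from 133 and 136 TPM to 68.9 and 55.2 with YAPi, 80.8 and 75.5 with TAZi, 124 and 102 with STAT3i and 96.6 and 71.6 TPM with JUNBi. All knockdown libraries lay below both controls. The log2 fold changes of normalized counts were -0.79 ± 0.11 for YAPi, -0.67 ± 0.09 for TAZi, -0.54 ± 0.13 for STAT3i and -0.63 ± 0.11 for JUNBi, with adjusted p of 1.3e-11, 2.3e-10, 4e-04 and 2.6e-07 in DESeq2. Beside these calls, the share of all tested genes called by DESeq2 was 10.9% for YAPi, 3.53% for TAZi, 8.09% for STAT3i and 6.71% for JUNBi. In edgeR the adjusted p of MCL1 was 0.0115 in TAZi and 0.0134 in STAT3i. Leaving out 1 library took the STAT3i call away in 3 of 4 cases, either Ctrli library or the second STAT3i library, with an adjusted p up to 0.166. In JUNBi the call was lost without the second Ctrli library (adjusted p = 0.0283, DESeq2).

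BIRC3 moved the other way. It had 22.9 and 21.8 TPM in the TAM controls, 48.9 and 35.2 in YAPi, 34.5 and 40.6 in TAZi and 61.4 and 39.6 TPM in JUNBi. The YAPi, TAZi and JUNBi libraries all lay above the controls. Log2 fold changes were 0.97 ± 0.13, 0.66 ± 0.11 and 1.06 ± 0.14, with adjusted p of 2.9e-12, 4.4e-07 and 1.4e-11 in DESeq2. The TAZi call was lost without the second TAZi library (adjusted p = 0.0516, DESeq2) and in edgeR (adjusted p = 0.0129). In STAT3i, at 21.4 and 18.0 TPM, BIRC3 had a log2 fold change of -0.33 ± 0.15 that did not pass (adjusted p = 0.13, DESeq2), and that passed with effective lengths as offsets (-0.53, adjusted p = 0.0057). PMAIP1, the gene of the MCL1 antagonist NOXA, rose in YAPi from 3.36 and 2.98 TPM to 6.70 and 6.77 TPM. Its log2 fold change was 1.02 ± 0.26 (adjusted p = 0.0015, DESeq2), and the call was lost when any 1 of the 4 libraries was left out (adjusted p 0.0396 to 0.431). In TAZi PMAIP1 had 5.07 and 7.13 TPM and did not pass (adjusted p = 0.15, DESeq2).

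The other BH3-only genes had no call in the TAM knockdowns. BCL2L11 went from 1.03 and 1.23 TPM to 0.52 and 1.03 TPM in STAT3i, where the higher STAT3i library met the lower control in TPM, and lay below both in normalized counts. Its log2 fold change of -1.10 ± 0.39 did not pass in DESeq2 (adjusted p = 0.0438) and passed in edgeR (adjusted p = 0.0072) and in a fit of all ER-Src groups (adjusted p = 0.00053). BIK, at 6.89 and 7.48 TPM in the controls, had 9.38 to 13.9 TPM in the 8 knockdown libraries, all above the controls, with log2 fold changes of 0.36 to 0.60 and adjusted p of 0.114 to 0.563. BBC3 stayed within 1.85 to 3.70 TPM in the whole line. In normalized counts its libraries lay below both controls in all 4 TAM knockdowns, with log2 fold changes of -0.65 to -0.42 (adjusted p 0.307 to 0.584, DESeq2). BIRC2 lay above both controls in all 4, at 0.22 to 0.41 (adjusted p 0.0676 to 0.484, DESeq2). Such separation was common among all genes tested. Above both controls lay 4970 of 14182 in YAPi, 4139 of 13442 in TAZi, 4940 of 14470 in STAT3i and 4534 of 13375 in JUNBi. Below both lay 4671, 3939, 4365 and 4122. The share of all genes on the same side in all 4 knockdowns, which share their controls, was not counted. Of the other prosurvival and inhibitor genes, BCL2L1 lay between 15.0 and 25.6 TPM, BCL2 between 0.35 and 0.85 TPM and BIRC2 between 8.65 and 18.4 TPM over the 20 ER-Src libraries, without a call.

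In ETH cells 3 calls were made. BIRC3 rose in YAPi to 30.5 and 23.7 TPM from 17.2 and 11.6, a log2 fold change of 0.94 ± 0.15 (adjusted p = 1.6e-08, DESeq2; 11.4% of genes called). Leaving out the first or the second YAPi library took the call away, with an adjusted p up to 0.177. In JUNBi BIRC3 reached 58.8 and 39.6 TPM, with a log2 fold change of 1.62 ± 0.26 (adjusted p = 1.4e-07, DESeq2; 2.76% called). That call was lost without the second ETH control (adjusted p = 0.076) and in edgeR (adjusted p = 0.0657). BCL2L11 rose in YAPi from 0.72 and 0.44 TPM to 1.15 and 1.19 TPM, a log2 fold change of 1.39 ± 0.38 (adjusted p = 0.0026, DESeq2), and lost its call when any 1 library was left out, at an adjusted p of 0.115 to 0.175, and with length offsets (0.0244). No member was called in TAZi (3 members at an unadjusted p under 0.05, 0 in edgeR; 5.53% of genes called) or in STAT3i (0 and 0; 0.201% called). Over all genes, 2900 in TAZi and 613 in STAT3i had an unadjusted p under 0.05 in DESeq2.

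The MCL1 result in ETH changed when transcript length entered the fit. MCL1 had 118 and 109 TPM in Ctrli and 73.7 and 58.2 TPM in YAPi, yet its log2 fold change of normalized counts was -0.28 ± 0.11 (adjusted p = 0.0458, DESeq2). The effective length that RSEM assigned to MCL1, an average over isoforms weighted by abundance, was 2294 and 2444 bases in the ETH controls and 3360 and 3464 bases in YAPi. The log2 ratio of mean effective lengths was 0.526 for MCL1, beside a median of 0.172 over 6892 genes. With effective lengths as offsets, the log2 fold change was -0.64 (adjusted p = 2.4e-06, DESeq2) in YAPi and -0.42 (adjusted p = 0.0068) in TAZi. In TAM the corresponding log2 length ratios of MCL1 were 0.355 for YAPi, 0.262 for TAZi, 0.026 for STAT3i and 0.276 for JUNBi. The part of length in these results was not tested beyond the offsets. ADAMTSL4 overlaps MCL1 on the other strand, and the sources used here did not say whether counting used strand.

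**Figure D2:**
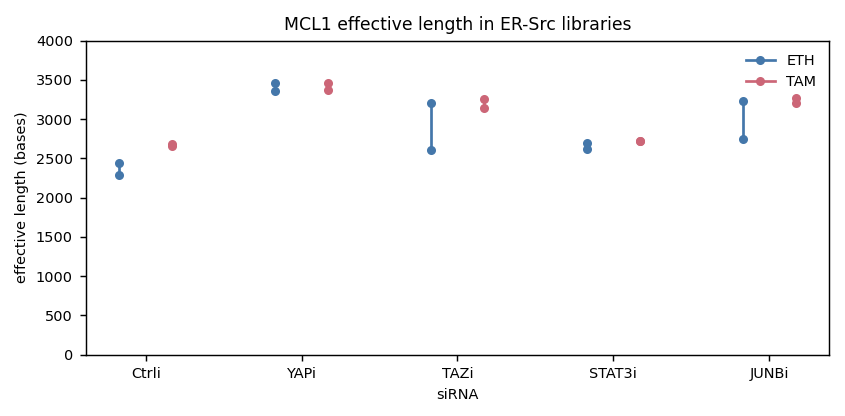
Effective length of MCL1 in bases (vertical axis) in the ER-Src libraries, by siRNA (horizontal axis). Points are the 2 libraries of a group, joined by a line, in ETH (blue) and TAM (red). The Ctrli libraries lay between 2294 and 2682 bases and the YAPi libraries between 3360 and 3464 bases.

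Interactions of knockdown and tamoxifen were tested for each siRNA. No member passed in the 4 tests in DESeq2 or in edgeR. In DESeq2 only 4 of the 10 members had an adjusted p in the TAZi test, so the others could not pass there. In each of the other tests 9 had one. An unadjusted p under 0.05 was found in 7 of 40 member tests in DESeq2. Over all genes, also those without an adjusted p, it was found in 835 for YAPi, 1408 for TAZi, 1154 for STAT3i and 903 for JUNBi. All genes were called at 0.496% for YAPi, 1.64% for TAZi, 1.4% for STAT3i and 0.287% for JUNBi. MCL1 came closest, with interaction log2 values of -0.52 (adjusted p = 0.0355, DESeq2) for YAPi, -0.43 (0.0221) for TAZi, -0.62 (0.051) for STAT3i and -0.57 (0.311) for JUNBi. In a fit of all ER-Src groups its STAT3i interaction passed (adjusted p = 0.0099). A difference of the MCL1 response between TAM and ETH was not shown at the threshold used.

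**Figure D3:**
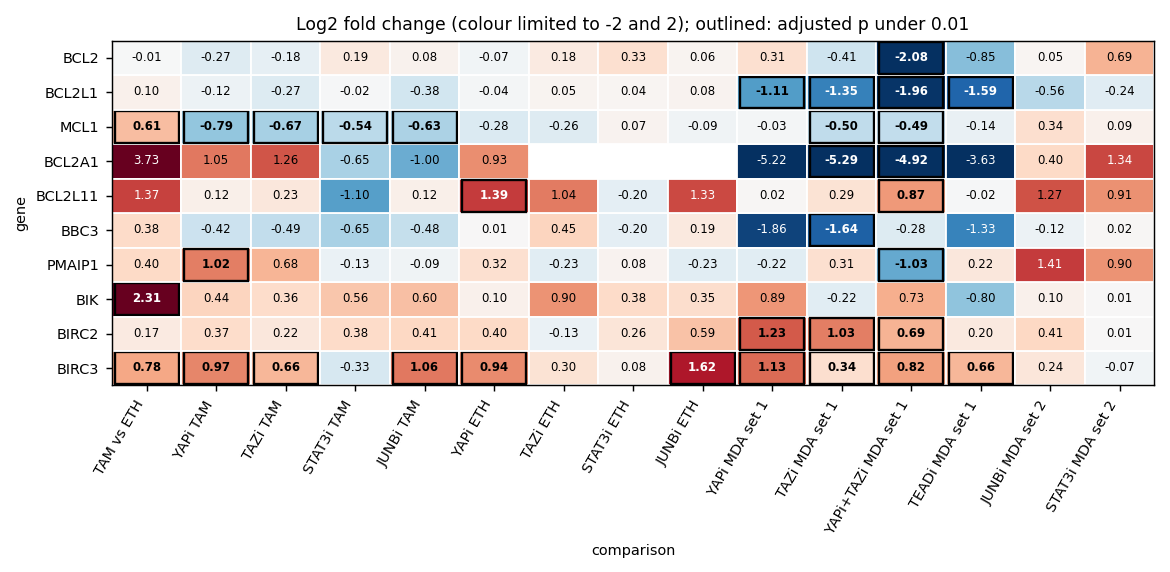
Log2 fold change of each member (rows) in the 15 comparisons without interactions (columns), with red for higher, blue for lower and an outline where the adjusted p was below 0.01. White squares had no fold change because BCL2A1 had no counts. MCL1 was outlined in all 4 TAM knockdowns, BIRC3 in all 4 set 1 knockdowns, and no member in set 2.

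In MDA-MB-231 set 1, 19 of 40 member tests were called (30.2% of all tests over genes), with a background of 24.1% of genes in YAPi, 32.3% in TAZi, 35.5% in YAPi with TAZi and 28.1% in TEADi. All 4 knockdowns share the 2 controls, and levels in TPM and normalized counts differed in direction for some members, a difference whose cause was not tested. BCL2L1 had 2105 and 2100 normalized counts in Ctrli and 1021 and 929 in YAPi, in the fit of YAPi. It was lower in all 4, with log2 fold changes of -1.11 ± 0.12, -1.35 ± 0.08, -1.96 ± 0.10 and -1.60 ± 0.13 in YAPi, TAZi, YAPi with TAZi and TEADi (adjusted p 1.2e-18, 1.2e-64, 1.3e-81 and 1.1e-30, DESeq2). BIRC3 had 737 and 742 normalized counts in Ctrli and 1525 and 1706 in YAPi. Its log2 fold changes were 1.13, 0.34, 0.82 and 0.66, all called. In TPM, however, all 8 knockdown libraries of BIRC3 (13.4 to 45.3) lay below both controls (48.6 and 45.8). BIRC2, with 800 and 756 normalized counts in Ctrli and 1643 and 1999 in YAPi, rose by 1.23, 1.03 and 0.69 in the first 3 knockdowns and had 0.20 in TEADi (adjusted p = 0.438). In TPM, BIRC2 had 77.7 and 77.8 in Ctrli and 42.2 and 72.2 in YAPi, below the controls. With YAPi, TAZi and YAPi with TAZi, the knockdown libraries of BIRC2 had more normalized counts than both controls, and those of BCL2L1 had fewer.

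BCL2L1 kept its call in all 4 knockdowns whichever library was left out. Leaving out either Ctrli library brought the 19 calls to 8. BIRC3 in TAZi was then lost (also without the second TAZi library; adjusted p up to 0.461), as were BIRC3 in TEADi (also without the second TEADi library; up to 0.0927) and BIRC2 in YAPi with TAZi (up to 0.0654). BIRC2 in TEADi passed without the first TEADi library (log2 fold change 0.38, adjusted p = 0.0061).

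The calls beyond these 3 genes lay in TAZi and in YAPi with TAZi. MCL1 fell by 0.50 and 0.49 on the log2 scale, and lost both calls without either Ctrli library (adjusted p up to 0.0466 and 0.0848). PMAIP1 had 357 and 339 normalized counts in Ctrli and 173 and 169 in YAPi with TAZi, a log2 fold change of -1.03 ± 0.17 (adjusted p = 5.5e-09, DESeq2), lost without either Ctrli library (up to 0.0988). BBC3 had 51.4 and 57.0 normalized counts in Ctrli and 13.2 and 20.3 in TAZi (log2 fold change -1.64, adjusted p = 0.0036, DESeq2). BCL2 and BCL2L11 were called in YAPi with TAZi, at -2.08 and 0.87, BCL2 on 4 and 3 counts. BCL2A1 was called in TAZi (adjusted p = 0.0053, DESeq2) and in YAPi with TAZi (0.0076) and did not pass in YAPi (0.0191). It had 36 and 61 counts in Ctrli and 0 in every YAPi, TAZi and YAPi with TAZi library, which against a floor of 3 counts per library makes it at least 2.29-fold, 2.33-fold and 1.83-fold lower. BBC3, BCL2, BCL2A1 and BCL2L11 lost the calls given here without any 1 of the libraries that could be tested. In a fit blocked on replicate number, the 6 calls lost of 19 were these 5 (BCL2A1 in both comparisons) and BIRC3 in TAZi (adjusted p = 0.181), and with length offsets the same 6, BIRC2 in YAPi with TAZi (0.037) and BIRC3 in TEADi (0.139) were lost.

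Each knockdown was also compared with the other 3 of set 1, which held non-polyadenylated RNA at a like share, in a fit blocked on replicate number because read length went with it. In these fits 0.597%, 0.377%, 1.11% and 1.84% of genes were called in YAPi, TAZi, YAPi with TAZi and TEADi, and 2 member calls were made: BIRC2 in TEADi at -0.81 (adjusted p = 0.0064) and PMAIP1 in YAPi with TAZi at -1.13 (adjusted p = 0.0086, DESeq2). BCL2L1 then had 0.47 in YAPi and 0.18 in TAZi, neither of them passing. In this reference a change shared by all knockdowns cannot appear. With the controls of both sets combined, 4 calls were left. The controls themselves differed between sets: PMAIP1 had 69.9 and 66.4 TPM in set 1 and 4.92 and 2.10 TPM in set 2, and MCL1 had 176 and 184 TPM and 48.1 and 45.7 TPM.

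**Figure D4:**
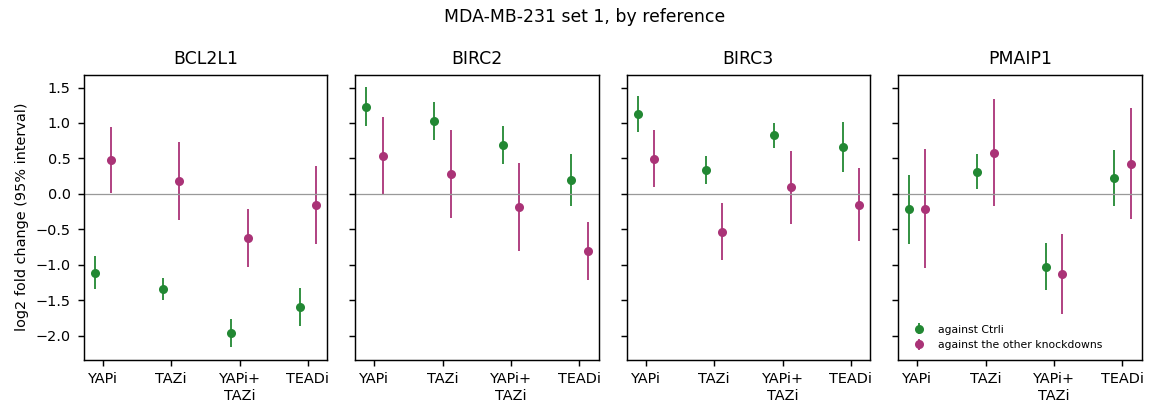
Log2 fold change with its 95% interval (vertical axis) of 4 members in each MDA-MB-231 set 1 knockdown (horizontal axis), against Ctrli (green) and against the other 3 knockdowns (purple). BCL2L1 was between -1.96 and -1.11 against Ctrli, whereas PMAIP1 in YAPi with TAZi was at -1.03 and -1.13.

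In set 2 no member was called in JUNBi (4 of 10 at an unadjusted p under 0.05; 3.99% of genes called) or in STAT3i (0; 0.237% called) in DESeq2, and none in edgeR. Over all genes, 2166 in JUNBi and 691 in STAT3i had an unadjusted p under 0.05 in DESeq2. In each comparison, 4 members had an adjusted p. PMAIP1, one of those without, had 4.92 and 2.10 TPM in Ctrli and 8.42 and 10.8 TPM in JUNBi, and BCL2L11 had 0.53 to 0.77 TPM in Ctrli, 1.93 in both JUNBi libraries and 2.13 to 2.75 TPM in STAT3i. BCL2L1 had 164 and 180 TPM in Ctrli and 133 and 154 TPM in JUNBi, with a log2 fold change of -0.56 (adjusted p = 0.0365, DESeq2). It passed in a fit of all MDA-MB-231 groups (adjusted p = 0.0095) and without the Ctrli library numbered 3 (0.0032).

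Other genes of the pathway were followed in lists. In TAM against ETH control cells, 3 of 8 NF-κB factors and inhibitors rose and none fell (median log2 fold change 0.64, beside -0.01 for all genes). TNFAIP3, an NF-κB inhibitor that is itself a target, rose most, by 1.44 ± 0.19. In the TAM cells with STAT3i 3 of the 8 fell, RELB most (-1.09 ± 0.24; median -0.63, beside 0.03 for all genes), and no NF-κB gene was called in the other 3 TAM knockdowns. Of 11 caspases and apoptosome genes with an adjusted p, 2 rose with tamoxifen, CASP10 (2.91 ± 0.54) most, and CASP10 fell in STAT3i (-1.63 ± 0.45). Of 14 death receptors, ligands and adaptors, 1 rose with tamoxifen, TNFRSF21 (2.73 ± 0.30), 2 rose in TAM YAPi and 3 fell in TAM STAT3i, beside 6.11%, 10.9% and 8.09% of all genes called.

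Among 4 tested genes of the p53 family and its feedback, 2 rose in YAPi and 2 in TAZi in TAM, CDKN1A, a p53 target and cell cycle inhibitor, most in YAPi (1.17 ± 0.17). Of the other BCL2 family genes, 12 of 15 tested in TAM and 11 in ETH, 1 rose in JUNBi, HRK, a BH3-only gene (1.96 ± 0.41 and 2.38 ± 0.38). Of the 7 tested other inhibitors of apoptosis and their antagonists, BIRC5 (survivin), which is also high in dividing cells, fell most in TAM in YAPi (-0.91 ± 0.18). Of all genes 10.9% were called in TAM YAPi, 3.53% in TAM TAZi, 6.71% in TAM JUNBi and 2.76% in ETH JUNBi. In set 1, 3 other BCL2 family genes rose and 5 fell of 12 tested in YAPi with TAZi, and of 8 NF-κB genes 1 rose and 6 fell, beside 35.5% of all genes called. BMF, a BH3-only gene, rose most of the family, by 4.95 ± 0.19 in YAPi with TAZi.

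Genes whose ER-Src pattern was most like a member's were found by Pearson's r of log2(TPM + 1) over the 10 group means, among 6956 genes. For BIRC3 the closest with a symbol were DCUN1D3 (r = 0.963) and NFKBIZ (0.936). MCL1 was closest to CIT (0.946) and EML2 (0.939). BCL2L11 had KLF5 (0.907) among its 3 closest. These are descriptions over group means that share libraries and controls.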

How the data were processed

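The RNA is given as rRNA-depleted (per the labels, from a ribosome profiling kit). Whether one preparation was used for every library was not tested. Non-polyadenylated RNAs were at most 0.00407% of counts under set 1 Ctrli and 0.0112% in set 2, beside at least 8.71% in all other libraries. The authors aligned reads to GENCODE v30 with STAR and estimated gene levels with RSEM on hg38. The deposited tables hold expected counts, which were rounded here to whole numbers, and TPM, which the authors normalized per length and per 1e6 transcripts. The deposited length and effective length columns were used as offsets in an alternative. Of 60725 Ensembl genes, 56558 (93.1%) matched a GENCODE version 44 symbol. Rows outside Ensembl genes held at most 0.109% of counts and stayed out.

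Following the study's methods, DESeq2 1.42.0 in R 4.3.3 was run with defaults for each comparison (19 in all), with calls at an adjusted p below 0.01. Fitted across all genes with Benjamini-Hochberg adjustment, p-values left as NA by DESeq2 stayed NA. Alternatives were edgeR 4.0.16 quasi-likelihood, TMM size factors, a mean count of at least 10, length offsets, a replicate block, all groups in 1 fit, other references and leaving out each library (92 fits). A local dispersion trend was added after seeing the data. The scripts were tested on simulated data. With 2 libraries against 2, an exact permutation test cannot give a two-sided p below 0.333, so none was run. Intervals of log2 fold changes come from the DESeq2 standard error, and the floor of 3 counts covers counting error only. No libraries of a group agreed within sampling noise. The members and lists were chosen with earlier results of these data known. The genes named were the 10 members, targeted genes, the largest called gene per list and direction in a family of comparisons, and the 3 genes most like each of the 3 members with the most calls over the 9 ER-Src comparisons without interactions, ties broken by mean absolute log2 fold change. One gene that this rule would name is not reported here.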

Additional observations from a re-analysis of the deposited data

Results flagged for a closer look

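The 10 members were screened under YAPi, TAZi, STAT3i and JUNBi, at a mean normalized count of at least 10. Under 4 pairs of the same siRNA, all libraries of a member lay, in normalized counts, on opposite sides of their controls in TAM-treated ER-Src cells and in MDA-MB-231. The differences between lines were not tested. With 2 libraries against 2, such separation was common. Of 14182 genes tested in TAM YAPi, 4970 lay above and 4671 below their controls. Of 16777 in set 1 YAPi, 5952 lay above and 6690 below. In TAZi 4139 lay above and 3939 below of 13442 in TAM, and 6344 and 6882 of 17963 in set 1. In STAT3i these were 4940 and 4365 of 14470 in TAM, and 796 and 1370 of 4639 in set 2. JUNBi had 4534 and 4122 of 13375 in TAM, and 2107 and 2416 of 7187 in set 2. The share of all genes on opposite sides in both lines was not counted, so the 4 pairs were not shown to exceed it. MCL1 in JUNBi had a log2 fold change of -0.63 in ER-Src (called) and 0.34 in MDA-MB-231 (adjusted p = 0.239, DESeq2). BCL2L11 in STAT3i had -1.10 and 0.91, BCL2 in YAPi had -0.27 and 0.31, and BIK in TAZi had 0.36 and -0.22, none of them called in DESeq2, whereas BCL2L11 in ER-Src STAT3i passed in edgeR (adjusted p = 0.0072). In TPM the sides were not kept by BCL2L11 in STAT3i in ER-Src (a tie at 1.03) or by BCL2 in set 1 YAPi (0.68 and 2.32, beside 1.98 and 2.04 in Ctrli). The YAPi and TAZi pairs rest on set 1, where knockdown and library type cannot be told apart.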

How the results depend on the processing

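Of 33 member calls, edgeR kept 28, TMM size factors 30, a mean count of at least 10 kept 30, effective length offsets 24, a replicate block 25 and the fit of all groups of a cell line 26. In ETH the 3 calls became 5 in the fit of all groups, where BCL2L11 passed in TAZi and JUNBi. The interaction count of 0 became 1 with a replicate block and 1 in the fit of all groups, both MCL1 in STAT3i, and in set 2 the count of 0 became 1 in the fit of all groups. In set 1 the 19 calls became 11 with length offsets, 4 with the controls of both sets and 2 with the other set 1 knockdowns as reference with a replicate block. In that reference BCL2L1 was at 0.47 in YAPi and 0.18 in TAZi, BIRC3 at -0.53 in TAZi and -0.15 in TEADi, and BIRC2 at -0.19 in YAPi with TAZi and -0.81 in TEADi, each opposite to its sign against Ctrli. BIRC2 in TEADi was also at -0.13 with length offsets and between -0.12 and 0.38 when 1 library was left out, the lowest without the second TEADi library and the highest without the first. The causes were not tested.

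Leaving out 1 library gave 2 to 3 calls for TAM against ETH, 5 to 8 for the TAM knockdowns (5 without the second Ctrli library), 1 to 4 for the ETH knockdowns (1 without the second Ctrli library or either YAPi library), 0 to 1 for the interactions, 8 to 20 for set 1 (8 without either Ctrli library) and 0 to 1 for set 2. A lone library was assumed to vary like the other groups. The labels state no pairing for replicate numbers. Deviations of same-numbered libraries correlated at r = 0.15 for TAM against ETH, -0.05 to 0.04 in the TAM knockdowns, 0.14 to 0.40 in the ETH knockdowns and -0.04 to -0.02 in set 1, where the number also goes with read length among the knockdowns and not among the controls. With the block, calls were 3, 7, 2, 1 and 13 for the first 5 families of comparisons, and PMAIP1 in TAM YAPi (adjusted p = 0.0413) and BCL2L11 in ETH YAPi (0.0464) were lost. No paired analysis was possible for set 2 because its controls are numbered 3 and 4 and its knockdowns 1 and 2. The low depth of the set 1 knockdowns, 1411304 counts at least, limits members such as BCL2A1 and BCL2.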
